A study of Homo sapiens with 42 samples.

Results

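The HIF-2α KIN and HIF-1β KIN lines are edited clones of 786-O, a human clear cell renal cell carcinoma (ccRCC) line, and were compared with each other by poly-A RNA-seq. In HIF-2α KIN a V5 and HaloTag sequence was knocked in at the endogenous gene of HIF-2α, EPAS1, and in HIF-1β KIN the same tag was placed at the gene of HIF-1β, ARNT. The study describes both as homozygous and N-terminal. The libraries were chosen by their labels as the 3 HIF-2α KIN and the 3 HIF-1β KIN libraries of the first of 2 batches, which are 6 of the 42 libraries of the series. The other groups are unedited wild-type (WT) 786-O cells and lines that express HIF-α variants from a transgene; of these, only the 3 WT libraries of the same batch are shown beside the clones. All groups carry the background of 786-O, in which VHL is inactive and HIF-1α is truncated. The RNA-seq labels name no clone, while the study used clones A31 (HIF-2α) and A21 (HIF-1β) for ChIP-seq. Each genotype is taken here as 1 clone, so the effect of a tag and any difference between single cells of the parental line cannot be told apart. The study calls its replicates biological without saying in what they differ. The p-values below measure the spread between libraries of a group, estimated together over all 27 libraries of 9 groups in this batch.

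HIF-2α is an oxygen-regulated transcription factor that binds DNA as a dimer with the constitutive subunit HIF-1β. VHL marks HIF-α subunits for degradation, and its loss in ccRCC leaves HIF-2α active at normal oxygen, where it drives genes of angiogenesis, growth, glucose uptake and matrix remodelling. HIF-1β is also the partner of other bHLH-PAS proteins.

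The tags were added at the start of the 2 proteins, so the first coding bases of the endogenous genes are shown, with the start codon in capitals. They are bases of the MANE transcript in GENCODE 44 on hg38. The start codon of ARNT is at chr1:150876565-150876567 on the minus strand and that of EPAS1 at chr2:46297912-46297914 on the plus strand, and the untagged proteins have 789 and 870 residues.
ARNT: ATGgcggcgactactgccaaccccgaaatg
EPAS1: ATGacagctgacaaggagaagaaaaggagt

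The 6 libraries had from 42377599 to 86126038 reads assigned to genes. Levels are given as normalized counts, which are counts divided by the effective library size (edgeR's TMM method) and scaled to its mean over the 27 libraries of the batch. On this scale 3 reads, taken as the detection floor, correspond to 2.54 to 4.28, a limit that covers counting error only. Per library, 6.32% to 8.97% of reads came from the 10 most abundant genes and 0.0686% to 0.245% from mitochondrial genes. Over all tested genes on the log2 scale, libraries of 1 clone lay 122 ± 8.90 apart (Euclidean distance, SD over 6 pairs) and libraries of different clones 143 ± 10.5 (SD over 9 pairs). Libraries of different clones with the same replicate number were 133 ± 13.3 apart (3 pairs) and those with other numbers 148 ± 4.10 (6 pairs). The same-numbered pairs were 148, 129 and 122 apart for numbers 1, 2 and 3. Number 1 thus lay within the range of the other-numbered pairs, 143 to 152.

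The edited genes were read first. EPAS1 (chr2:46293667-46386697) had normalized counts of 5801, 6741 and 5989.5 in the HIF-2α KIN libraries, 7565, 10116 and 13469.8 in HIF-1β KIN and 12563, 14335 and 16596 in WT. The clones did not overlap, and every HIF-2α KIN library was below every library of the other 2 groups. The log2 difference between the clones was -0.75 (SE 0.20, adjusted p = 0.0198) in the quasi-likelihood test of edgeR, with p adjusted after Benjamini-Hochberg as throughout. It missed the call used here, which is an adjusted p of at most 0.01 with a fold change of at least 2. Blocking on the replicate number gave an adjusted p of 9.79e-04, while the fold change stayed under 2. ARNT (chr1:150809713-150876708) had 1618 ± 354 normalized counts in HIF-2α KIN, 1606 ± 298 in HIF-1β KIN and 1622 ± 144 in WT (SD, n = 3 each). Its libraries overlapped between the clones, with a log2 difference of 0.01 and a standard error of 0.23. The sequence of the tag is not part of hg38, and whether the insertion changed the number of reads counted on either gene was not tested.

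HIF1A (chr14:61695513-61748259), whose product is truncated in 786-O, was measured at 281, 317 and 564 in HIF-2α KIN and 199, 184 and 270.0 in HIF-1β KIN. The libraries of the clones did not overlap and the log2 difference was 0.83 (SE 0.23, adjusted p = 0.0292), short of a call. HIF1A lies on chromosome 14, whose genes had a median log2 difference of 0.45 between the clones (below), and the part of the chromosome in the HIF1A value was not tested. Of 13 tested genes of HIF subunits, cofactors and oxygen sensors, 0 were called, against 2.45% of all genes. Among them the prolyl hydroxylase EGLN1 had a log2 difference of 0.31, EGLN3 of -0.48, VHL of 0.25 and ARNT2, a paralog of ARNT, of -0.37.

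Of 23410 genes tested, 573 were called between the clones (2.45%), 370 of them higher in HIF-2α KIN (1.58%) and 203 lower (0.867%). The libraries of the clones did not overlap for 4479 genes (19.1%), and 4313 genes had an unadjusted p under 0.05 (18.4%). The median log2 difference of all tested genes was 0. Among called genes the median size on the log2 scale was 1.97 in the higher and 1.72 in the lower genes, and 98 and 45 of them differed at least 8-fold by the fitted value. Protein-coding genes made up 337 of the higher and 189 of the lower genes. The number of calls depended on single libraries: without HIF-1β KIN library 1 only 237 genes were called higher and 159 lower. In bulk RNA, a lower level in every cell and a lower share of expressing cells cannot be told apart.

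**Figure D1:**
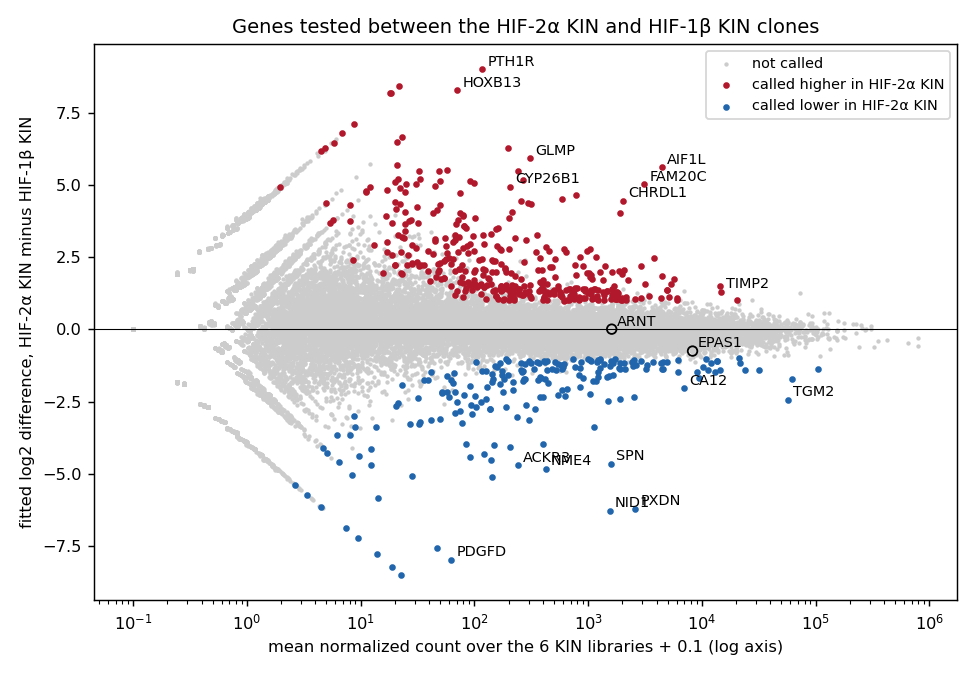
Fitted log2 difference between the clones (vertical axis) against the mean normalized count over the 6 KIN libraries plus 0.1 (log axis), with 1 point per tested gene outside chromosome Y. Red and blue points are the genes called higher and lower in HIF-2α KIN, and open circles mark EPAS1 and ARNT; NID1 and PXDN lie below -6, and PTH1R lies above 9.

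Among lower genes averaging 50 or more normalized counts, NID1 and PXDN had large differences at high levels in HIF-1β KIN. NID1 (chr1:235975830-236065109) encodes nidogen-1, a linker between laminin and collagen IV, and was measured at 39.2, 27.1 and 48.2 in HIF-2α KIN, 2787, 3125 and 3220.1 in HIF-1β KIN and 3398, 3369 and 3329.7 in WT. Its log2 difference was -6.28 (SE 0.20, adjusted p = 7.65e-18). PXDN (chr2:1631887-1744852), the gene of peroxidasin, which crosslinks collagen IV, had 44.5, 57.1 and 98.9 against 4604, 4438 and 6268, a log2 difference of -6.22 (SE 0.27, adjusted p = 1.05e-14). Both genes were thus near their WT level in HIF-1β KIN and far below it in HIF-2α KIN, with no overlap. PDGFD, a ligand of PDGF receptor β, had 0, 0 and 0.845 in HIF-2α KIN, where it was at or under 3 reads in every library, and 130.2, 124 and 116 in HIF-1β KIN. It was at least 28.9-fold lower, against the floor of 3 reads per library. ACKR3, a scavenging receptor of CXCL12, had 26.2, 15.7 and 12.7 against 508, 539 and 346, a log2 difference of -4.70 (SE 0.38, adjusted p = 2.62e-09).

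Other lower genes of this size were the neuronal protease gene PRSS12 (-5.12 on the log2 scale), the nucleoside diphosphate kinase gene NME4 (-4.83), SPN, which encodes the sialoglycoprotein CD43 (-4.65), C3orf18 (-4.53), PTPRN2, of secretory granules (-4.42), the trophinin gene TRO (-4.00), PRTFDC1 (-3.98) and the thymidine phosphorylase gene TYMP (-3.37). They did not share a position relative to WT. SPN was at 388, 382 and 382 in WT, 2331, 3498 and 3262 in HIF-1β KIN and 153, 99.9 and 108 in HIF-2α KIN, so WT lay between the clones. For TYMP the WT libraries, at 1796, 2052 and 2463, overlapped those of HIF-1β KIN (1810.2, 1834 and 2546) and above HIF-2α KIN (224, 134 and 238). BEND3P1, a processed copy of BEND3 whose reads can be shared with it, was high only in HIF-1β KIN, at 231, 194 and 262 against 17.0, 7.14 and 10.1 in HIF-2α KIN and 4.95, 3.87 and 8.43 in WT.

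Among the most abundant lower genes, the transglutaminase gene TGM2 had 15763, 21136 and 16377 in HIF-2α KIN, 74493, 91081 and 121649.9 in HIF-1β KIN and 84215, 112991 and 133588 in WT, a log2 difference of -2.43 (SE 0.23, adjusted p = 5.73e-08). SYNPO, for the actin-associated protein synaptopodin, had 17285, 17699 and 16983 against 34126, 43604 and 61059 (log2 difference -1.42). THBS1, for the matrix protein thrombospondin-1, had 36313, 30799.7 and 19467 against 91529, 80914 and 114649, with WT at 37209, 35815 and 49253 (log2 difference -1.73). For THBS1 it was thus HIF-1β KIN that stood apart from the other 2 groups, while TGM2 and SYNPO were near WT in HIF-1β KIN.

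The higher genes with the largest differences included a hormone receptor and a homeobox gene that were at or near 0 in HIF-1β KIN. PTH1R (chr3:46877721-46903799), the receptor of parathyroid hormone, had 252, 216 and 229.8 in HIF-2α KIN, 0, 0 and 0.854 in HIF-1β KIN and 1.65, 5.81 and 7.03 in WT, and was at least 72.1-fold higher. HOXB13 (chr17:48724763-48728750), a posterior homeobox transcription factor, had 186, 74.2 and 161 against 0, 0 and 0.854, at least 43.4-fold higher, with WT at 19.8, 12.6 and 27.4. AIF1L, of an actin-binding protein, was abundant in HIF-2α KIN only: it had 11914, 6637 and 7482 there, 230.3, 109.6 and 189.7 in HIF-1β KIN and 648, 403 and 578 in WT, a log2 difference of 5.62 (SE 0.28, adjusted p = 1.46e-13). The Golgi kinase gene FAM20C, which phosphorylates secreted proteins, had 6684, 5994 and 5262 against 181, 179 and 188, a log2 difference of 5.03 (SE 0.26, adjusted p = 3.8e-13). WT libraries had 659.8, 961 and 718, between the clones.

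Lysosomal GLMP (5.93 on the log2 scale), the G protein subunit gene GNGT2 (6.27), the Forssman synthase gene GBGT1 (5.52), the inflammasome adaptor gene PYCARD (5.50), ABI3 (5.18), the protein kinase A subunit gene PRKAR2B (5.15), the chondroitin synthase gene CHSY3 (5.07), the basement membrane gene FRAS1 (4.74), the growth factor gene MDK (4.64) and interferon-stimulated IFI27 (4.51) were also higher. GNGT2 and ABI3 overlap at their ends on opposite strands of chromosome 17, and without strand information reads of the overlap cannot be told apart. The call of FRAS1 was lost without HIF-1β KIN library 1, where its log2 difference was 4.39 with an adjusted p of 0.011. CHRDL1, an antagonist of bone morphogenetic proteins, had 3112, 4453 and 3972 in HIF-2α KIN, 188, 187 and 147 in HIF-1β KIN and 328, 254 and 154 in WT. Abundant higher genes with smaller differences were TIMP2, an inhibitor of matrix metalloproteinases (25018, 18524 and 18959 against 7825, 7888 and 9477), and LGMN, a lysosomal protease (8799, 7867 and 7855 against 3949.8, 3994 and 3607).

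In all, 32 of the higher genes were at or under 3 reads in every HIF-1β KIN library and 24 of the lower genes at or under 3 reads in every HIF-2α KIN library. In the first set, ST8SIA4, a polysialyltransferase gene, had 48.4, 41.4 and 39.7 in HIF-2α KIN and 0 in all HIF-1β KIN libraries (at least 13.4-fold higher). The glucose transporter gene SLC2A2 had 48.4, 116 and 98.0 against 3.23, 3.19 and 1.71 (at least 27.1-fold), SLC16A9, of a monocarboxylate transporter, 65.4, 52.8 and 58.3 against 3.23, 1.06 and 0.854 (at least 18.2-fold), and the receptor phosphatase gene PTPRO 60.2, 32.8 and 33.0 against 3.23, 0 and 2.56 (at least 13.0-fold). The SLC2A2 call was lost without HIF-1β KIN library 3 (adjusted p = 0.0102). In the second set, HACD4, of fatty acid elongation, had 0, 0 and 0.845 in HIF-2α KIN and 132, 89.4 and 57.2 in HIF-1β KIN (at least 21.7-fold lower). DTNA, of the dystrophin complex, had 2.62, 0 and 1.69 against 51.7, 55.3 and 56.4 (at least 12.7-fold lower), with 144, 144 and 123 in WT. PLCL2 and SDR42E1 had 0 reads in all HIF-2α KIN libraries and were at least 6.42-fold and 8.70-fold lower. Of these 56 genes, 55 had a mean of under 150 normalized counts in the clone that had them, and PTH1R had 233.

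The called members of the hypoxia and HIF target list were all lower in HIF-2α KIN. Of 42 tested members, 10 were called lower and 0 higher, against 0.867% and 1.58% of all genes, and their median log2 difference was -0.55 against 0 over all genes. The libraries of the clones did not overlap for 19 members that were lower and 5 that were higher, against 19.1% of all genes in either direction. Each of the 10 was also called without any 1 of the 6 libraries. The genes were chosen as known HIF targets, with earlier results of these data known.

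VEGFA, the angiogenic ligand, had 8052, 7024 and 7417 in HIF-2α KIN, 15626, 16346 and 18193 in HIF-1β KIN and 16330.0, 17259 and 15579 in WT, a log2 difference of -1.16 (SE 0.13, adjusted p = 9.5e-07). TGFA, a ligand of the EGF receptor, had 6311, 6013 and 5281 against 14643, 14731 and 14178 (log2 difference -1.31, SE 0.16, adjusted p = 4.45e-06). WT libraries had 8996, 9993 and 9496, so that HIF-1β KIN was above and HIF-2α KIN below WT. LOX, a lysyl oxidase that crosslinks collagen, had 157, 78.5 and 157 against 706, 550.1 and 769.8 (log2 difference -2.36, SE 0.22, adjusted p = 2.43e-08). The plexin receptor gene PLXNA2 had the largest difference of the list, with 44.5, 44.3 and 19.4 in HIF-2α KIN, 178, 247 and 282 in HIF-1β KIN and 314, 389 and 473 in WT (log2 difference -2.75, SE 0.28, adjusted p = 1.56e-07).

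The carbonic anhydrase gene CA12 had 2847, 3346 and 1969 in HIF-2α KIN, 11424, 12303 and 9648 in HIF-1β KIN and 13247, 12633 and 10001 in WT (log2 difference -2.03, SE 0.24, adjusted p = 2.09e-06). It lies on chromosome 15, whose median log2 difference was -0.44. Cyclin D1, CCND1, had 13630.2, 12664 and 13344 against 25650.1, 32089.9 and 46025 (log2 difference -1.39, SE 0.22, adjusted p = 9.49e-05), with WT at 26043, 33106 and 37664. STC1, a secreted glycoprotein hormone, TMEM45A, a membrane protein, and ANGPTL4, an inhibitor of lipoprotein lipase, were at log2 differences of -1.70, -1.67 and -1.51. In HIF-2α KIN their levels were 60.2, 89.9 and 55.8 for STC1, 183, 181 and 184 for TMEM45A and 36.6, 34.3 and 33.0 for ANGPTL4. In HIF-1β KIN the 3 genes had 227, 246 and 194, 795, 566 and 387 and 121, 90.4 and 85.4, and the clones did not overlap for any of them. The ANGPTL4 call was lost in a fit to the 6 KIN libraries alone. For CCND1, LOX, VEGFA, CA12 and STC1 the WT mean lay within 10% of the HIF-1β KIN mean.

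**Figure D2:**
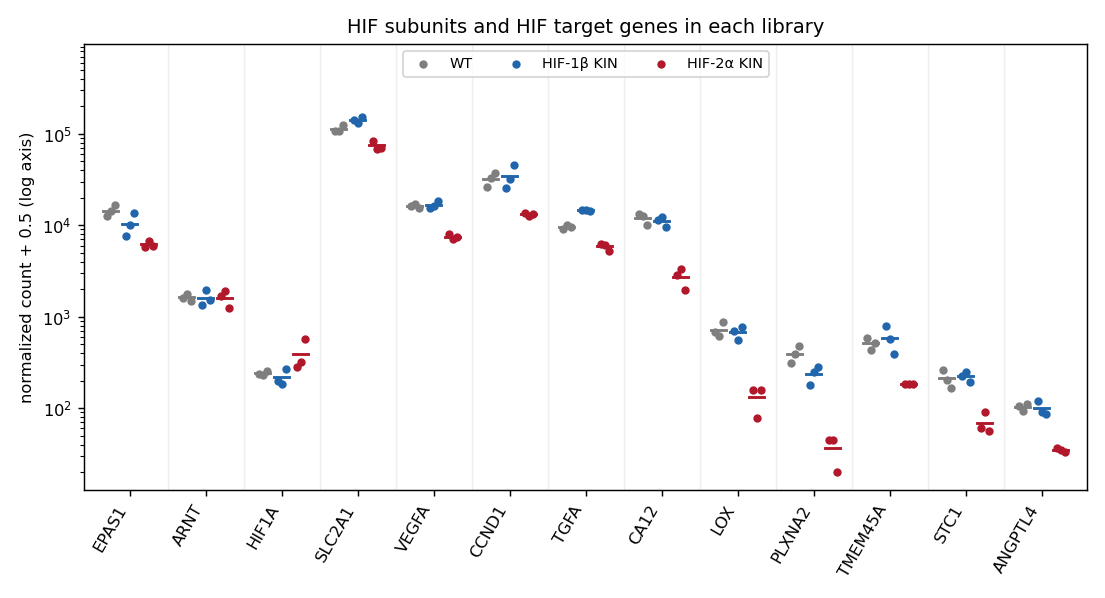
Normalized count plus 0.5 (log axis) of the HIF subunit genes, SLC2A1 and 9 called members of the HIF target list in each WT (grey), HIF-1β KIN (blue) and HIF-2α KIN (red) library, with the mean as a bar. The 3 HIF-2α KIN libraries lie below all HIF-1β KIN libraries for every gene but ARNT and HIF1A.

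Other members of the list did not pass. The glucose transporter gene SLC2A1 had 83895, 68889.9 and 70756 in HIF-2α KIN, 140955, 132275 and 153443 in HIF-1β KIN and 108547, 107894 and 123701 in WT. Its adjusted p was 0.000425, and with a log2 difference of -0.93 it fell short of the 2-fold threshold. NDRG1 had a log2 difference of -0.83 (SE 0.23, adjusted p = 0.0269). BNIP3, of mitophagy, KDM3A, a histone demethylase gene, and LOXL2 had differences of -0.01, 0.01 and -0.01, with standard errors of 0.16, 0.15 and 0.18. The values of PFKFB3 (0.53), PLIN2 (0.60) and NDUFA4L2 (1.19) were above 0, with adjusted p-values of 0.0417, 0.397 and 0.0191. NDUFA4L2 was called higher with the replicate block (adjusted p = 0.00539). CA9 had at most 3 reads in every one of the 6 libraries. Of 19 glycolysis enzymes only HK2, a hexokinase gene, was called, against 2.45% of all genes. HK2 had 1762, 2397 and 1471 in HIF-2α KIN against 3013, 4137 and 4829 in HIF-1β KIN (log2 difference -1.09, SE 0.19, adjusted p = 0.000436). Its call was lost without HIF-1β KIN library 3 (log2 difference -0.93) and without HIF-2α KIN library 3 (-0.94), where its fold change was under 2.

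HIF dimers bind DNA at a short core, and the promoters of the called targets were read for it. Promoters were taken from RefSeq (GRCh38.p14) as 250 bases before to 50 bases after the gene start, and searched on both strands for ACGTG and GCGTG. Of the tested genes, 12648 had a promoter in the table, and 60.5% of these promoters held at least 1 match. Of the genes called lower, 152 had a promoter and 60.5% of them held a match, compared with 50.6% of 261 promoters of the higher genes. In the target list, 6 of the 10 lower members had a promoter, of which 3 held a match, and 25 members that were not called had one, of which 76% held a match. A match in this window is a description of its letters, and distal elements were not searched. The promoters of the 3 lower targets with a match are shown with the matched bases in capitals. They are those of LOX (chr5:122078210-122078509, minus strand, 4 matches), CA12 (chr15:63381797-63382096, minus strand, 2 matches) and ANGPTL4 (chr19:8363905-8364204, plus strand, 1 match).
LOX: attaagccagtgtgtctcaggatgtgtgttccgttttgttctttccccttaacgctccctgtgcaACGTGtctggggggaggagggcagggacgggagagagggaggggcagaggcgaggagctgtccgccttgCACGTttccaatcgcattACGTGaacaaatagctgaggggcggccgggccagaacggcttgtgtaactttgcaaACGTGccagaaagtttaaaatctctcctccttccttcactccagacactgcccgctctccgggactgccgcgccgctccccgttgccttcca
CA12: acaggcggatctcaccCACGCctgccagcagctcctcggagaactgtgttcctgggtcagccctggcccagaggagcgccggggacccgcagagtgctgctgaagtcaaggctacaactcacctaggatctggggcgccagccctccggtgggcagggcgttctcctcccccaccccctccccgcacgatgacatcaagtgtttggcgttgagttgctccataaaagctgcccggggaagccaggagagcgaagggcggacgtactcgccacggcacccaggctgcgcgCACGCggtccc
ANGPTL4: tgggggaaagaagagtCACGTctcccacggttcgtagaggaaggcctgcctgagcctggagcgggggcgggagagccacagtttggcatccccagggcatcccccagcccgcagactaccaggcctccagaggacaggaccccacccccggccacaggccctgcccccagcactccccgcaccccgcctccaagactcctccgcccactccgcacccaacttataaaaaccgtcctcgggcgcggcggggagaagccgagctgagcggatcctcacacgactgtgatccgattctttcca

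Chemokine, cytokine and receptor genes that were called were lower in HIF-2α KIN, with 1 exception. Of 55 tested members, 10 were called lower and 1 higher, against 0.867% and 1.58% of all genes, and the median log2 difference was -0.46. CXCL8, a neutrophil chemokine, had 23.5, 50.0 and 69.3 in HIF-2α KIN, 1314, 516 and 444 in HIF-1β KIN and 1579.8, 1445 and 1473 in WT (log2 difference -3.96, SE 0.57, adjusted p = 3.31e-05). The growth factor of granulocytes and macrophages, CSF2, had 11.8, 37.1 and 21.1 against 433, 275 and 453 (log2 difference -4.07, SE 0.46, adjusted p = 7.92e-07), and WT libraries had 491, 558 and 725. TNF had 18.3, 22.8 and 23.7 against 216, 161 and 126 (log2 difference -2.94, SE 0.38, adjusted p = 7.63e-06), with 353, 440.2 and 312 in WT. For all 3 genes both clones were on average below WT, and HIF-2α KIN was the lower of the 2.

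IL7R, the receptor of interleukin 7, had 109.9, 246 and 191 against 711, 521 and 480.1 (log2 difference -1.65, SE 0.28, adjusted p = 0.000297). CXCL12, the ligand of ACKR3, had no read in HIF-2α KIN and 4.30, 3.19 and 7.69 normalized counts in HIF-1β KIN. CCL20, a chemokine of lymphocytes, also had none in HIF-2α KIN and had 15.1, 4.26 and 6.83 in HIF-1β KIN. The floor of 3 reads corresponds to 3.23, 3.19 and 2.56 in the HIF-1β KIN libraries. CXCL12 was thus at the floor in library 2 of that clone and near it in library 1, and CCL20 was near it in library 2. CXCL5 (-1.28), CCL2 (-1.80) and CXCL1 (-1.08) were the other lower members. The higher member was IL20RB, a cytokine receptor subunit, at 196, 148 and 130.1 against 42.0, 55.3 and 23.1, and its call was lost in all 6 fits without 1 library (adjusted p up to 0.0558). Without HIF-1β KIN library 1 or without HIF-2α KIN library 3, 6 members were called lower, and ACKR3, CSF2, CXCL8, TNF and IL7R were called without any 1 library. The calls of CXCL12 (adjusted p up to 0.014), CCL20 (0.0239), CXCL5 (0.0189), CCL2 (0.0629) and CXCL1 (0.0274) were each lost without at least 1 library. IL6 (-1.59, adjusted p = 0.0187) and LIF (-0.81, adjusted p = 0.000364) were not called, LIF because its fold change was under 2. With the replicate block IL6 was called lower (adjusted p = 0.000473).

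Retinoid genes that were called were higher in HIF-2α KIN. Retinoic acid is made from retinol by dehydrogenases and is broken down by CYP26 enzymes. Of 24 tested members of its metabolism and receptors, 5 were called higher and 0 lower, against 1.58% and 0.867% of all genes. Their median log2 difference was 0.70. CYP26B1, which inactivates retinoic acid, had 430.4, 354 and 412 in HIF-2α KIN, 12.9, 12.8 and 12.8 in HIF-1β KIN and 3.30, 11.6 and 2.11 in WT (log2 difference 4.95, SE 0.53, adjusted p = 3.82e-07). CRABP2, the carrier of retinoic acid to the nucleus, had 2445, 1273 and 1262 against 591, 436 and 469.9 (log2 difference 1.73, SE 0.28, adjusted p = 0.000125), with 1208, 888 and 1008 in WT. The synthesis enzyme gene ALDH1A3 had 662, 503 and 625 against 242, 204 and 290.5 (log2 difference 1.28, SE 0.19, adjusted p = 6.37e-05). WT libraries of ALDH1A3, at 314, 451 and 412, lay between the clones.

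Both remaining retinoid calls were lost in most fits without 1 library. ALDH1A1, another synthesis enzyme gene, had 5056, 7663 and 8620.1 against 2737, 3413 and 2039 (log2 difference 1.38, SE 0.29, adjusted p = 0.00326). It kept its call only without HIF-1β KIN library 2 or HIF-2α KIN library 1 (adjusted p up to 0.0266 without 1 of the others). Its log2 difference stayed between 1.21 and 1.58 in these fits. The replicate block (adjusted p = 3.84e-05), DESeq2 and the fit to the KIN libraries alone also called ALDH1A1. DHRS3, a retinal reductase gene, had 1069, 681 and 481 against 79.6, 166 and 59.8 (log2 difference 2.87, SE 0.63, adjusted p = 0.00459) and kept it only without HIF-1β KIN library 2 or HIF-2α KIN library 3 (adjusted p up to 0.0376 otherwise), with WT at 10.7, 29.0 and 7.03. Without HIF-1β KIN library 1, HIF-1β KIN library 3 or HIF-2α KIN library 2, 3 members of the list were called higher, and the retinol receptor gene STRA6 was called lower without HIF-1β KIN library 1 (log2 difference -1.81, adjusted p = 0.00809). With all libraries STRA6 had a log2 difference of -1.59 (SE 0.39, adjusted p = 0.0105), and the replicate block called it lower (adjusted p = 0.000988). The block also raised the higher calls from 5 to 7, with BCO1 (adjusted p = 0.000485) and PLAAT4 (adjusted p = 0.000809). The receptor genes RARA (0.30), RARG (0.14), RXRA (-0.09) and RXRB (0.27) did not pass.

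**Figure D3:**
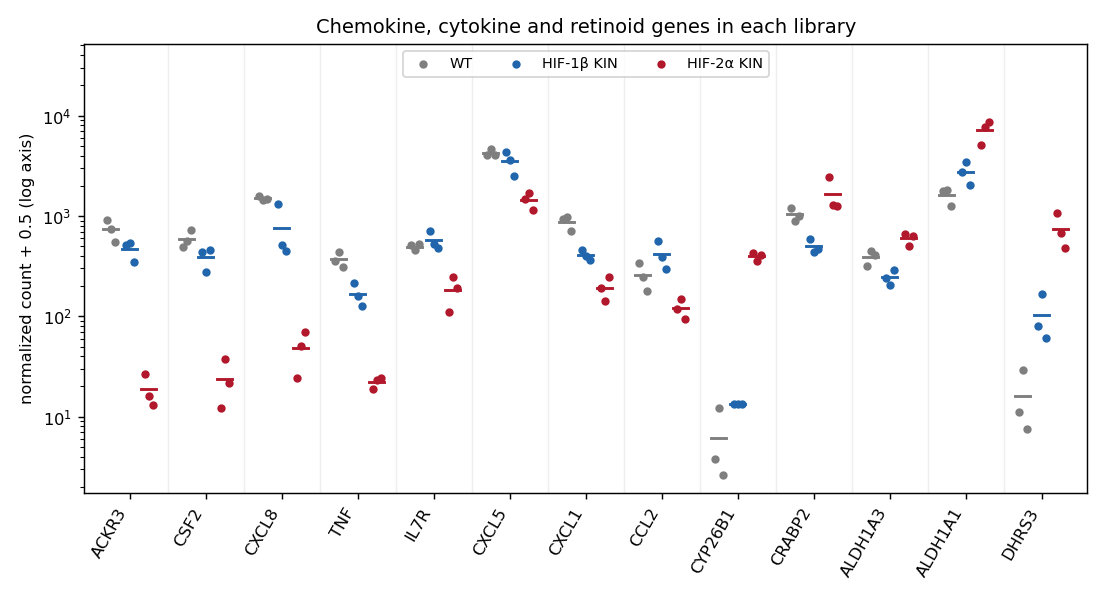
Normalized count plus 0.5 (log axis) of called chemokine, cytokine and retinoid genes in each WT (grey), HIF-1β KIN (blue) and HIF-2α KIN (red) library, with the mean as a bar. For the first 8 genes all HIF-2α KIN libraries lie below all HIF-1β KIN libraries, and for the 5 retinoid genes they lie above.

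Growth factor signalling genes moved in both directions. Of 51 tested receptor tyrosine kinases and their ligands, 4 were called higher and 6 lower, against 1.58% and 0.867% of all genes. PDGFRB, the receptor of PDGF-B and PDGF-D, had 1372, 799 and 1055 in HIF-2α KIN, 202, 99.0 and 166 in HIF-1β KIN and 157, 122 and 171 in WT (log2 difference 2.79, SE 0.26, adjusted p = 3.26e-08). FGFR3, a receptor of fibroblast growth factors, had 3191, 2207 and 3625 against 616, 788 and 835 (log2 difference 2.01, SE 0.29, adjusted p = 3.18e-05), and MERTK, a receptor for the uptake of apoptotic cells, 169, 228 and 210.4 against 52.7, 75.5 and 47.0 (log2 difference 1.79, SE 0.31, adjusted p = 0.000349). For PDGFRB and FGFR3 the libraries of HIF-1β KIN and WT overlapped. Besides PDGFD, VEGFA and TGFA, the lower members were PDGFB (7369, 6935 and 7365 against 12145, 13823 and 18082), VEGFC (-1.04) and HBEGF (-1.17). Without HIF-1β KIN library 3 the calls of PDGFB and VEGFC were lost and 4 of the 6 were left, and HBEGF lost its call without HIF-1β KIN library 1 or HIF-2α KIN library 3. Over the fits without 1 library the smallest differences were -0.85 for PDGFB, -0.95 for VEGFC and -0.98 for HBEGF on the log2 scale. The list has ligands of PDGF receptor β among its lower members and the receptor itself among its higher ones.

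Matrix and adhesion genes also differed in both directions. Among 55 tested matrix glycoproteins and proteoglycans 3 were called higher and 3 lower, among 35 collagen chains 3 and 2, and among 48 matrix proteases and inhibitors 5 and 4. Over all genes 1.58% were called higher and 0.867% lower. With the replicate block 5 glycoproteins and proteoglycans were called higher. NID2, which encodes the paralog of nidogen-1, had 637, 544 and 646 in HIF-2α KIN, 177, 171 and 208 in HIF-1β KIN and 980.3, 1032 and 845 in WT (log2 difference 1.72, SE 0.22, adjusted p = 7.04e-06), the opposite direction to NID1. LAMA5, a laminin α chain, had 4851, 6758 and 7778 against 759.8, 1274 and 1462 (log2 difference 2.47, SE 0.34, adjusted p = 1.61e-05), and LAMB3, a laminin β chain, 7038, 8336 and 8184 against 19815, 16406 and 26676 (log2 difference -1.42, SE 0.23, adjusted p = 0.000146). Laminin chains were thus found on both sides. Of the collagens, COL9A2 (3.49), COL12A1 (2.06) and COL14A1 (1.40) were higher, and the fibrillar chain COL5A2 (-1.64) was lower. COL5A1, its partner chain, had at most 3 reads in HIF-2α KIN and 14.0, 17.0 and 14.5 normalized counts in HIF-1β KIN, at least 3.54-fold lower.

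Of the proteases, the aggrecanase-related ADAMTS15 had 2373, 1702 and 1883 against 262, 334 and 444 (log2 difference 2.52, SE 0.29, adjusted p = 1.32e-06) and ADAMTS7 177, 109.9 and 226 against 30.1, 23.4 and 24.8 (log2 difference 2.71, SE 0.41, adjusted p = 7.12e-05). ADAMTS2, the procollagen N-proteinase, had 154, 61.4 and 154 against 708, 431 and 743 (log2 difference -2.34, SE 0.31, adjusted p = 1.05e-05). MMP19 was at least 10.1-fold higher and MMP16, a membrane-bound metalloproteinase, at least 5.80-fold lower. Among 23 integrin chains, ITGB4, the partner of α6 in hemidesmosomes, had 280.0, 239.8 and 194 against 40.9, 41.5 and 51.3 (log2 difference 2.41, SE 0.35, adjusted p = 4.17e-05). ITGB8, an activator of TGF-β, had 443, 621 and 531 against 1749, 1605 and 2098 (log2 difference -1.77, SE 0.20, adjusted p = 6.95e-07), with 3031, 3302 and 3373 in WT. The remaining 21 integrins did not pass, and 2.45% of all genes were called in either direction.

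Epithelial genes EPCAM (34.0, 34.3 and 43.1 against 166, 163 and 114, log2 difference -1.97, SE 0.25, adjusted p = 6.44e-06) and ESRP2 (254, 281 and 309 against 610.2, 780.0 and 868, log2 difference -1.42, SE 0.20, adjusted p = 2.79e-05) were lower in HIF-2α KIN. EPCAM is an adhesion protein and ESRP2 a splicing regulator of epithelial cells. Among 26 genes of the epithelial to mesenchymal transition 3 were lower and 0 higher, against 0.867% and 1.58% of all genes. CLDN1, of tight junctions, was the last of the 3 lower members. Its log2 difference was -1.35 (SE 0.28, adjusted p = 0.00221), and its call was lost without HIF-1β KIN library 1 or HIF-2α KIN library 1 or 3 (adjusted p up to 0.0174). As a whole the 26 genes had no common direction, with 12 above 0, 13 below and a median log2 difference of -0.0063. The clones did not overlap for 5 members that were higher and 7 that were lower, against 19.1% of all genes in either direction. The cadherin and catenin list had 0 calls among 21 members, and CTNNA1, the most abundant, had a log2 difference of 0.03 (SE 0.29). CDH17, of intestinal and liver epithelium, had a difference of 5.28 (SE 1.32, adjusted p = 0.0141) and was called higher in 6 alternative fits, among them DESeq2 (adjusted p = 0.00428) and the replicate block (adjusted p = 0.00239).

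Kidney lineage transcription factors that were called were all higher in HIF-2α KIN, 4 of 28 tested, against 1.58% of all genes called higher. ELF3, an epithelial ETS factor, had 8791, 9089 and 8614 in HIF-2α KIN, 1896, 3246 and 2679 in HIF-1β KIN and 3161, 4752 and 4363 in WT (log2 difference 1.76, SE 0.23, adjusted p = 9.95e-06). SALL1, required for kidney development, had 3609, 4011 and 2881 against 1349, 1927 and 1789 (log2 difference 1.05, SE 0.19, adjusted p = 0.000645), and its call was lost without HIF-1β KIN library 1 (log2 difference 0.91) or HIF-2α KIN library 2 (0.93). GATA3, a factor of the collecting duct lineage, was at or under 3 reads in HIF-1β KIN and at least 13.4-fold higher, at 31.4, 55.7 and 42.3. Its call was lost without HIF-1β KIN library 1 (adjusted p = 0.0114) or library 3 (adjusted p = 0.0102). PAX8 (0.06) and PAX2 (-0.52) did not pass, and OSR1 (2.63) passed only in alternative fits, among them the replicate block (adjusted p = 0.00277).

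Of 35 tested HOX genes, 32 had a log2 difference above 0, with a median of 0.57. Called higher were 3, against 1.58% of all genes. HOXB8 had 1869, 1620.3 and 2256 against 682, 793 and 880.0 (log2 difference 1.29, SE 0.20, adjusted p = 0.000118), with WT at 536, 538 and 593, below both clones. HOXA5 had 1514, 1328 and 1593 against 566, 595 and 720.2 (log2 difference 1.24, SE 0.25, adjusted p = 0.00172) and lost its call without HIF-1β KIN library 1 (adjusted p = 0.0155) or library 2 (adjusted p = 0.0137). HOXA10 (0.98, adjusted p = 0.00107) and HOXB9 (0.70, adjusted p = 0.00052) were below the fold threshold. Blocking on the replicate number gave 6 HOX genes called higher, and 5 were called without HIF-2α KIN library 2. The HOXB genes are on chromosome 17, where the median log2 difference of all genes was 0.20, and the HOXA genes on chromosome 7, where it was -0.029. The HOXC genes are on chromosome 12 (median 0.19) and the HOXD genes on chromosome 2 (median -0.088). In the window of chromosome 17 from 40 to 50 Mb, which holds HOXB13, the median was 0.35 and 83.8% of 198 genes were above 0.

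In the Wnt pathway 3 of 39 members were higher and 2 lower, against 1.58% and 0.867% of all genes. The ligand WNT2B had 141, 74.2 and 80.3 against 9.69, 5.32 and 17.1 (log2 difference 3.16, SE 0.46, adjusted p = 4.32e-05), the receptor FZD2 a log2 difference of 1.17 and the receptor FZD8 one of -2.01. With the replicate block 5 members were higher, and the call of the other lower member, the receptor gene ROR2 (-1.10), was lost without any 1 library but HIF-1β KIN library 1 (adjusted p up to 0.0279). Among 58 genes of TGF-β, BMP and activin signalling 2 were higher and 4 lower. CHRDL1 (4.47) was among the higher and INHBA, the βA subunit of activin, among the lower. INHBA had 867, 861 and 755 in HIF-2α KIN, 4186, 3934 and 4432 in HIF-1β KIN and 3998, 3958 and 4502 in WT (log2 difference -2.34, SE 0.25, adjusted p = 4.31e-07). Without HIF-1β KIN library 3 only 1 of this list was called lower, and without HIF-2α KIN library 1 or 2 there were 2. The second higher member, GDF15, at a log2 difference of 1.00, was called in 1 of the 6 fits without 1 library, and 1 member was called higher without HIF-1β KIN library 1 or 2 or HIF-2α KIN library 1 or 3. Of 63 axon guidance genes 3 were higher and 3 lower. SEMA3B (1.50) and SEMA6B (1.46) were among the higher, SEMA3C (-1.37) and the receptor gene PLXNA2 among the lower, and with the replicate block 5 members were lower.

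Amino acid transporters had 4 higher and 0 lower members of 26, against 1.58% and 0.867% of all genes. SLC7A2, which carries cationic amino acids, had 31.4, 106 and 59.2 in HIF-2α KIN and 1.08, 0 and 3.42 in HIF-1β KIN (log2 difference 5.22, SE 0.74, adjusted p = 2.83e-05), and SLC43A1 421, 323 and 249 against 137, 109 and 119 (log2 difference 1.45, SE 0.22, adjusted p = 9.05e-05). SLC7A7 (1.13) and SLC7A8 (1.97) are both on chromosome 14, and 2 members of the list were called without HIF-1β KIN library 1 or without HIF-2α KIN library 1. SLC7A5, the most abundant transporter, had a log2 difference of -0.62 (adjusted p = 0.177), and the median of the list was -0.34, opposite in sign to its 4 calls. The bile acid carrier gene FABP6 (149, 71.4 and 43.9 against 945, 445 and 382) was lower, and SNAP25, of vesicle fusion, was higher (181, 117 and 123 against 29.1, 9.58 and 20.5). CDKN1C, an imprinted inhibitor of the cell cycle, was at least 12.8-fold higher. The class II gene HLA-DPB1 had 0 reads in HIF-2α KIN and was at least 3.45-fold lower, with at most 1 normalized count in WT.

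In the fit used throughout, no member was called among 48 genes of proliferation and DNA replication, 36 of the unfolded protein and amino acid stress response, 31 nuclear pore proteins, 37 clustered protocadherins or 21 cancer-testis antigens. The share called was 2.45% over all genes, at which lists of this size would hold few calls. The proliferation list had a median log2 difference of -0.086, and TK1, its most abundant member, had one of 0.12 (SE 0.24). The nuclear pore list had a median of -0.39, with 26 of 31 members below 0 and non-overlapping clones for 13 of these, against 19.1% of all genes. NUP210 was low in both clones, at 15.7, 20.0 and 49.9 in HIF-2α KIN and 5.38, 2.13 and 18.8 in HIF-1β KIN, while WT libraries had 3461, 3949 and 4305. Both clones were thus far below WT for NUP210. Its difference between the clones, 1.68 (SE 0.44, adjusted p = 0.0179), missed the call, and the gene was higher in HIF-2α KIN in all 3 same-numbered pairs. It was called higher with the replicate block (adjusted p = 0.00161), with DESeq2 (adjusted p = 0.000506) and without HIF-1β KIN library 3 (log2 difference 2.97, adjusted p = 0.000471) or HIF-2α KIN library 1 (adjusted p = 0.00799).

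**Figure D4:**
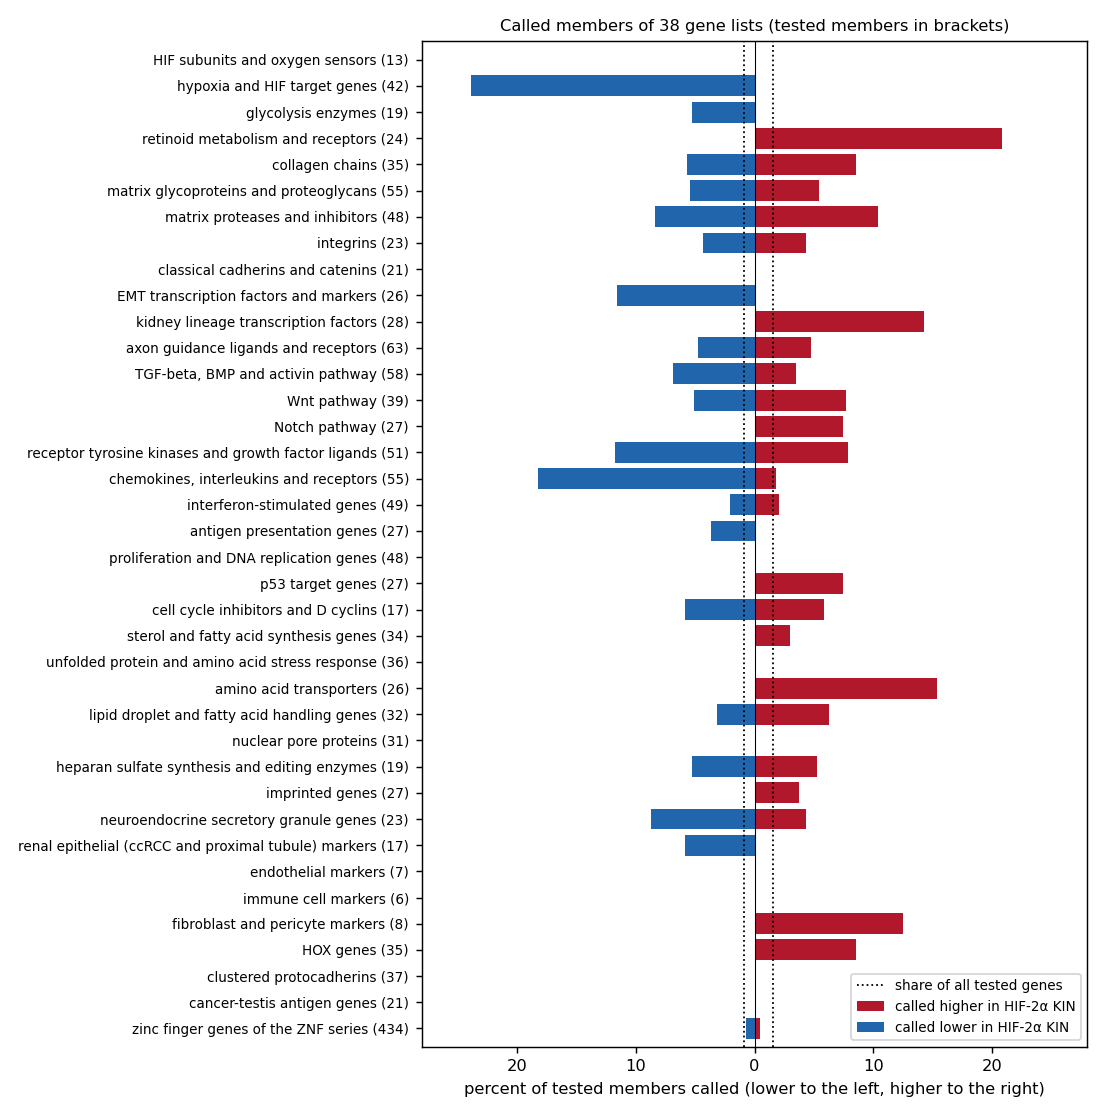
Percent of the tested members of each of 38 gene lists that were called higher (red, to the right) or lower (blue, to the left) in HIF-2α KIN; the number of tested members is in brackets, and dotted lines mark the shares of all tested genes, 1.58% and 0.867%. The longest bars are the HIF targets and chemokines to the left and the retinoid genes to the right, and 9 lists have no bar.

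Some listed markers of the line were present. Of 21 listed renal epithelial and ccRCC markers 17 were tested, and not all are given here. Among them PAX8, KRT8, KRT18, KRT19 and VIM were abundant in every library of both clones. The lowest of their group means was that of KRT18 in HIF-1β KIN, 11470.1 ± 1696 normalized counts (SD, n = 3). CA9 and AQP1 had at most 2.56 and 5.71. The summed level of the 17 tested renal markers was 310035 to 352853 in HIF-2α KIN and 227433 to 339815 in HIF-1β KIN, with ANGPTL4 the only called member. Of 10 endothelial markers 7 were tested and 0 called, against 2.45% of all genes, while the replicate block called CLDN5 higher (adjusted p = 0.00551). CDH5 and KDR had no read in either clone, VWF had at most 1 read per library, and the sums ran from 124 to 207 in HIF-2α KIN and from 148 to 219 in HIF-1β KIN. Of 14 immune markers 6 were tested and 0 called, with sums of 264 to 404 and 166 to 288, nearly all of it CSF1R. Of 11 fibroblast and pericyte markers 8 were tested and PDGFRB was called, while COL1A2 had no read in either clone and COL3A1 none in HIF-2α KIN. The sums of this list were 2023 to 2896 in HIF-2α KIN and 911 to 1326 in HIF-1β KIN.

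The clones also differed by chromosome. Over 15186 genes that averaged 10 or more normalized counts, of which 3.6% were called (2.36% higher and 1.24% lower), the median log2 difference was -0.025. On chromosome 14 it was 0.45, and 87.5% of 472 genes were above 0, with 29 called higher and 1 lower. The opposite held on chromosome 15, where the median was -0.44 and 17.4% of 483 genes were above 0, with 9 called higher and 18 lower. Chromosomes 17 (0.20) and 12 (0.19) were above 0 and chromosome 21 (-0.23) was below, while all other chromosomes lay between -0.14 and 0.011. Leaving out each library in turn kept the median of chromosome 14 between 0.41 and 0.46 and that of chromosome 15 between -0.47 and -0.44.

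These medians were also taken per library, relative to the WT mean of each gene on the log2 scale with a pseudocount of 0.5. On chromosome 14 the HIF-2α KIN libraries stood at 0.39, 0.41 and 0.40 and the HIF-1β KIN libraries at -0.05, -0.031 and -0.16. Chromosome 15 gave -0.17, -0.10 and -0.14 in HIF-2α KIN and 0.32, 0.37 and 0.23 in HIF-1β KIN. Chromosome 14 was thus above WT in HIF-2α KIN, and chromosome 15 was on opposite sides of WT in the 2 clones. On chromosome 17 both clones were above WT, HIF-2α KIN at 0.47, 0.43 and 0.46 and HIF-1β KIN at 0.14, 0.25 and 0.31. On chromosome 12 HIF-1β KIN was below WT, at -0.19, -0.19 and -0.26, and on chromosome 21 HIF-2α KIN was, at -0.34, -0.34 and -0.29. WT libraries of these 5 chromosomes lay between -0.039 and 0.053.

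**Figure D5:**
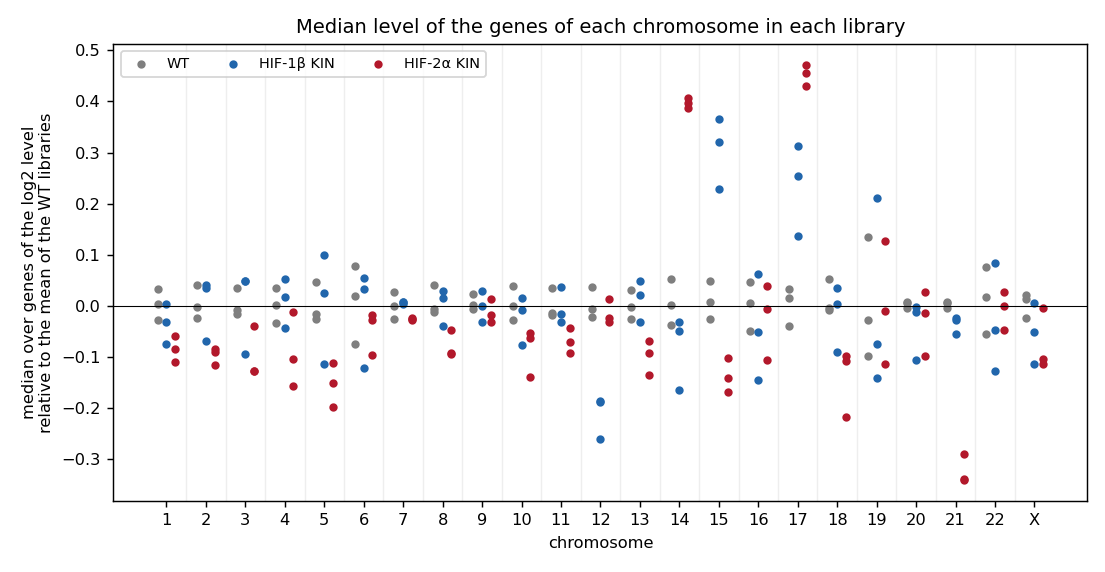
Median over genes of the log2 level relative to the mean of the WT libraries (vertical axis) for each chromosome except Y, with 1 point per library of WT (grey), HIF-1β KIN (blue) and HIF-2α KIN (red). HIF-2α KIN stands near 0.4 on chromosome 14 and below -0.28 on chromosome 21, and HIF-1β KIN between 0.23 and 0.37 on chromosome 15.

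The shifts ran along chromosomes 14 and 15, whose windows were all on 1 side of 0, from 0.26 to 0.52 on chromosome 14 and from -0.53 to -0.32 on chromosome 15. Among 255 windows of 10 Mb with at least 20 such genes, the 3 lowest medians were on chromosome 15 (60 to 70 Mb, -0.53; 30 to 40 Mb, -0.50; 70 to 80 Mb, -0.50) and the 3 highest on chromosome 14 (20 to 30 Mb, 0.52; 100 to 110 Mb, 0.52; 40 to 50 Mb, 0.49). In 25 windows the median was at least 0.3 from 0. Called genes on chromosome 14 included the lysosomal protease LGMN, NID2, IFI27 and the transporters SLC7A7 and SLC25A29, and on chromosome 15 CA12, THBS1, RPP25 and GPR176 were lower. After the chromosome's median was subtracted, 15 of the 29 higher genes of chromosome 14 and 6 of the 18 lower genes of chromosome 15 still differed at least 2-fold. On chromosomes 12, 14, 15 and 17 together 5.09% of 2711 genes were called, and on the others 3.3% of 12399. Chromosome 21, with a median of -0.23, is counted with the others, and 1.95% of its 154 genes were called. DNA was not measured in these files, so the copy number of these chromosomes was not tested.

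Promoter composition of the switched genes is given as a description. CpG-rich promoters were taken as those with an observed to expected ratio of CpG of at least 0.6, and made up 75.4% of the 12648 promoters. They were 68.6% of promoters of higher and 70.4% of promoters of lower genes. Among called genes at or under 3 reads in 1 clone the shares were 58.8% of 17 for genes off in HIF-1β KIN and 42.1% of 19 for genes off in HIF-2α KIN. The promoter of PTH1R (chr3:46877471-46877770, plus strand) had 2 CpG dinucleotides and that of NID1 (chr1:236065041-236065340, minus strand) had 36, so that strongly differing genes were found with both kinds. Both are shown with each CpG in capitals.
PTH1R: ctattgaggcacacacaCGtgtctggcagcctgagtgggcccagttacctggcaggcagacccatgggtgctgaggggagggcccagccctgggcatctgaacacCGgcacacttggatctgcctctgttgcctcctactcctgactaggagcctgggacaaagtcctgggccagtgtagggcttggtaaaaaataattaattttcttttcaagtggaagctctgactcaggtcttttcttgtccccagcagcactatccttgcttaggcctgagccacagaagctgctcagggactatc
NID1: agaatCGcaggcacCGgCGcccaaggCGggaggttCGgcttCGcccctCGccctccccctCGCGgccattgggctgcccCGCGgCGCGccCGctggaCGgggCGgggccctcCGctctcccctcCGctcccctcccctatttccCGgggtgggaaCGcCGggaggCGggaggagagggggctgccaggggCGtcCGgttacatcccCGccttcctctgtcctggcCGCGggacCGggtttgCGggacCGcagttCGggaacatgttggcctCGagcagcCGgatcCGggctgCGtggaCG

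The WT libraries, which were not in the contrast, were set beside the called genes. For 175 of the 203 lower genes the WT mean on the log2 scale was nearer to HIF-1β KIN, and for 28 nearer to HIF-2α KIN. For the 370 higher genes the numbers were 239 and 131. On a scale from 0 at HIF-1β KIN to 1 at HIF-2α KIN, WT had a median position of 0.063 over the lower and 0.30 over the higher genes. WT lay outside the range of the 2 clones, on the side of HIF-1β KIN, for 90 lower and 112 higher genes, and on the side of HIF-2α KIN for 4 and 46. NME4 and ALDH1A1 show the range. NME4 was at 837, 796 and 814 in HIF-1β KIN, 169, 169 and 142 in WT and 31.4, 24.3 and 29.6 in HIF-2α KIN, with WT between the clones, while for ALDH1A1 the WT libraries, at 1761, 1798 and 1253, were below both clones.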

How the data were processed

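Poly-A RNA of 786-O cells was sequenced in 27 libraries of 9 groups in the first batch, with 3 libraries per group. The authors aligned reads to hg38 with STAR, kept unique alignments, and counted them on genes of GENCODE v32 with HTSeq without strand; the deposited values are raw counts per gene. ERCC spike-ins were added in this batch and were not used here.

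Counts of the 27 libraries were fitted together with edgeR 4.0.16 in R 4.3.3 (TMM, quasi-likelihood test, 1 coefficient per group), and HIF-1β KIN was subtracted from HIF-2α KIN. The test covered genes averaging 0.5 or more normalized counts (23410 of 60609), with Benjamini-Hochberg adjustment over all of them. Calls required an adjusted p of 0.01 or less and a 2-fold difference or more. The fit was tested on simulated data. Positions are those of GENCODE 44 on hg38. Members of the comparison and all gene lists were chosen with earlier results of these data known. Named by rule were EPAS1, ARNT and HIF1A, the 15 largest differences in each direction among non-overlapping called genes averaging 50 or more normalized counts, the 5 most abundant called genes in each direction, up to 10 called genes in each direction at or under 3 reads in 1 clone, up to 4 called members of each list in each direction (with none called, its most abundant member), and called genes of the extreme windows. Other genes were named after their values were seen. Libraries of the clones with the same replicate number deviated together from their group means (correlations 0.214, 0.504 and 0.553 over 15186 genes), so the number was treated as a pairing in an alternative fit. Library 1 of HIF-1β KIN and library 2 of HIF-2α KIN also had a positive correlation, 0.136. Of the 157 genes named by the rule, 110 overlap another annotated gene. The alternatives were DESeq2 1.42.0, RLE scaling, other filters, fits to the KIN libraries, the replicate block and leaving out each library. Some called genes are counted in the lists but not reported here by name.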

Additional observations from a re-analysis of the deposited data

How the results depend on the processing

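The numbers of genes called higher and lower were 370 and 203. They were 522 and 254 with DESeq2, 379 and 196 with RLE scaling, 465 and 269 without a filter, 407 and 209 with filterByExpr, and 318 and 168 in a fit to the 6 KIN libraries. Leaving out 1 library gave 237 to 326 higher and 155 to 208 lower genes. With the replicate block they were 538 and 261, and with the block in the KIN libraries alone 624 and 284. Chosen after seeing the data, a fit to KIN libraries numbered 1 and 2 gave 246 and 200, and calls without a fold threshold 448 and 324. Of 145 called genes named by the rule, 105 were called without any 1 library, 94 under every alternative, and 0 changed direction. The replicate block changed no call of these 145 genes, and it added 31 of 1543 list members to the calls and dropped 0. Beside the counts given with the results, it moved interferon-stimulated genes from 1 to 3 and sterol synthesis genes from 1 to 2 higher, and p53 targets and imprinted genes each from 0 to 1 lower. Higher calls also rose from 3 to 4 in collagens and in axon guidance genes, and from 5 to 6 in matrix proteases. They rose from 2 to 3 in the TGF-β and ZNF zinc finger lists and from 0 to 1 in renal markers. Lower calls rose from 4 to 5 in matrix proteases, 2 to 3 in neuroendocrine granule genes and 10 to 12 in the chemokine list.

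Genes with differences near 0 changed sign and were not called in any of these fits. ARNT was at 0.01 and went to -0.0026 without a filter, -0.0023 in the KIN libraries, -0.010 with the replicate block and -0.011 with the block in the KIN libraries, and ranged from -0.15 to 0.17 without 1 library. CTNNA1 went to -0.0090 with the block and -0.0058 with the block in the KIN libraries, and ranged from -0.17 to 0.24 without 1 library (0.03 with all). Without 1 library ESAM ranged from -0.49 to 0.16, PCDHGC3 from -0.20 to 0.17 (0.17 with libraries numbered 1 and 2) and TK1 from -0.028 to 0.30.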
